A study of Homo sapiens with 12 samples.

Results

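RNAseq of 2 human bladder carcinoma cell lines, CAL-29 and 5637, was examined here for the FGF receptors FGFR1, FGFR2, FGFR3, FGFR4 and FGFRL1, for FGFBP1 and for FGF2. These 7 genes were taken from the 23064 gene symbols of the count tables by name, with the transcript row of the most counts standing for each gene. They were chosen by their measured fold changes between siKMT9α#1 and siCtrl cells, above all the high FGFRL1 level after the knockdown, and because FGFR3 is a bladder cancer driver. The knockdown values are therefore given as a description, without a test. Each line was transfected either with the control siRNA siCtrl or with 1 siRNA against KMT9α, siKMT9α#1, and RNA was taken at day 3, with 3 libraries in each of the 4 groups and 12 in all. KMT9α is the catalytic subunit of the lysine methyltransferase KMT9 and is encoded by N6AMT1. Both are established lines labelled wild type, and the labels do not say whether the libraries of a group came from separate cultures, so p-values measure only the spread between these libraries, which may be technical. The lines were transfected with different reagents and siRNA concentrations and grown in different media, so a difference between the lines cannot be told apart from these conditions. With a single siRNA against KMT9α, an effect of its sequence on other transcripts cannot be told apart from an effect of losing KMT9α, and in bulk RNA fewer cells of a type cannot be told apart from less RNA per cell.

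Fibroblast growth factors signal through FGFR1 to FGFR4, receptor tyrosine kinases that pair on binding a ligand together with heparan sulfate and pass the signal through the adaptor FRS2 to the RAS and MAPK cascade. FGFRL1 binds FGF ligands and heparin with a related extracellular part but lacks the kinase domain, and it is often described as a decoy or modulating receptor. FGFBP1 is a secreted protein that releases FGF2 from the extracellular matrix, where FGF2, a ligand without a classical signal peptide, is stored on heparan sulfate. In the urothelium, activating mutations and fusions of FGFR3 are frequent in bladder tumors, and epithelial cells mostly splice FGFR3 to the IIIb form, whose alternative exon in the third immunoglobulin-like domain sets which ligands are bound.

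Positions are on the build used for the files, hg19 (GRCh37). FGFRL1 lies at chr4:1003724-1020686 on the plus strand and FGFR3 at chr4:1795020-1810599 on the same strand, with their starts 789606 bases apart. FGFBP1 lies at chr4:15937200-15940363 on the minus strand and FGF2 at chr4:123747837-123819391 on the plus strand. FGFR2 lies at chr10:123237846-123357972 on the minus strand and FGFR4 at chr5:176513906-176525145 on the plus strand. For FGF2, 13.2% of the exon bases of the main transcript also belong to exons of other genes, among them NUDT6 on the opposite strand, and for FGFR1 the share was 0.9%. Reads there cannot be told apart where counting ignores strand. The other members shared no exon bases with another gene.

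The alternative exons of FGFR3 are shown because they are what separates its epithelial IIIb row of the count tables from its IIIc row. They lie at chr4:1804641-1804791 (IIIb) and chr4:1805419-1805563 (IIIc) on the plus strand. Both are coding and are written 5′ to 3′ from GRCh37, and capitals mark the longest run of bases that the exons share.
FGFR3 IIIb: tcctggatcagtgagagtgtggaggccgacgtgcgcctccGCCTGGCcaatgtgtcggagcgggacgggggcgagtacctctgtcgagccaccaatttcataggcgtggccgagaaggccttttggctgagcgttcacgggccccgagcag
FGFR3 IIIc: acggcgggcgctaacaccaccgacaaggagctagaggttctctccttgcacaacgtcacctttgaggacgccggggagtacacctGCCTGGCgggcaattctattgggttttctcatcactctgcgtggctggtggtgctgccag
The longest shared run was 7 bases.

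Summed over the row with the most counts per symbol, the libraries held from 24479348.5 to 35151256.5 estimated counts. Levels are given in CPM, counts per 1e+06 counts of a library after scaling with the trimmed mean of M-values (TMM). N6AMT1 itself was at 11.4, 10.2 and 9.68 CPM in the CAL-29 siCtrl libraries and at 2.82, 2.93 and 1.99 CPM in the siKMT9α#1 libraries. In 5637 cells it was at 13.4, 13.2 and 13.3 CPM with siCtrl and at 3.75, 2.22 and 2.56 CPM with siKMT9α#1. The siKMT9α#1 mean was 0.247 times the siCtrl mean in CAL-29 cells (SE of the log2 fold change 0.15, edgeR adjusted p = 1.33e-10) and 0.214 times in 5637 cells (log2 fold change -2.23, SE 0.12, edgeR adjusted p = 1.05e-15), lower in 3 of 3 libraries of each line. Of 17 urothelial markers, 15 reached a mean of 1 CPM in CAL-29 siCtrl libraries and 13 in 5637 siCtrl libraries, led by KRT8 at a mean of 4738 CPM in CAL-29 and by KRT7 at 3545 CPM in 5637 cells. Of the uroplakins of differentiated urothelium, UPK1B was at a mean of 308 CPM in CAL-29 and 5.72 CPM in 5637 siCtrl cells, UPK2 at 8.08 and 0.645 CPM, UPK3A at 0.543 and 0.0601 CPM and UPK1A at 0.704 and 0.0204 CPM. The summed level of the urothelial list was 13806 to 14474 CPM with siCtrl and 6813 to 6972 CPM with siKMT9α#1 for CAL-29, and 8884 to 9311 against 6154 to 6364 CPM for 5637. Not every marker of the list was lower. FOXA1 was at means of 66.4 with siCtrl and 141 CPM with siKMT9α#1 in CAL-29, and at 11.3 and 17.1 CPM in 5637 cells. KRT7, KRT20 and PPARG were also higher with siKMT9α#1 in CAL-29 cells, and TP63 in 5637 cells. Of 8 fibroblast, 5 endothelial and 6 immune markers, the defining genes DCN, PECAM1, CD3E and PTPRC had means of at most 0.210 CPM in every group. Other genes of these lists were expressed, among them FAP at 124 and COL3A1 at 22.2 CPM in CAL-29 siCtrl cells, THY1 at 57.9 and COL1A2 at 38.6 CPM in 5637 siCtrl cells, KDR at 10.8 CPM in CAL-29 siCtrl cells and CD68 at 11.0 CPM in CAL-29 siKMT9α#1 cells. With siCtrl and with siKMT9α#1, the fibroblast list summed to 141 to 161 and 61.2 to 68.4 CPM for CAL-29 and to 98.0 to 106 and 42.0 to 45.9 CPM for 5637. The endothelial list summed to 11.4 to 13.9 and 5.19 to 6.92 CPM for CAL-29 and to 2.63 to 3.22 and 0.812 to 1.25 CPM for 5637. Within it, CDH5 went the other way in CAL-29 cells, at means of 0.683 and 3.81 CPM. VWF did so in 5637 cells, at 0.338 and 0.574 CPM. The immune list was higher with siKMT9α#1, at 6.33 to 8.16 and 13.2 to 15.2 CPM for CAL-29 and 3.56 to 3.96 and 4.96 to 5.40 CPM for 5637. The part of these lists in the values below was not tested. CAL-29 siCtrl replicate 1 stood apart from the other libraries of its group, differing from them by more than sampling noise to a larger extent (chi-square over genes divided by its degrees of freedom, 8.17 and 12.3) than any other pair within a group (2.25 to 4.001). Without it, the CAL-29 log2 fold change was 2.47 for FGFRL1, -0.24 for FGFR3, 0.013 for FGFR2, -0.47 for FGFR1, 0.36 for FGFR4, -0.69 for FGFBP1 and 0.073 for FGF2.

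The level of each receptor transcript in the siCtrl cells gives the starting point of each line. Per kb of its main transcript, CAL-29 siCtrl cells held 17.0 ± 0.624 CPM per kb of FGFR3 and 16.7 ± 0.0786 of FGFR2 (SD, n = 3), followed by FGFBP1 at 7.58 ± 0.532, FGFR1 at 4.04 ± 0.373, FGF2 at 1.46 ± 0.0675, FGFRL1 at 1.35 ± 0.102 and FGFR4 at 0.379 ± 0.136 CPM per kb. FGFR3 and FGFR2 did not differ beyond their spread, nor did FGF2 and FGFRL1, while the other neighbors in this order did. In 5637 siCtrl cells the order began with FGFBP1 at 27.2 ± 0.344 CPM per kb, then FGFR2 at 7.91 ± 0.312, FGFR1 at 4.86 ± 0.0800, FGFRL1 at 4.74 ± 0.109, FGF2 at 2.66 ± 0.0725, FGFR3 at 1.33 ± 0.131 and FGFR4 at 0.255 ± 0.0385 CPM per kb. There, only FGFR1 and FGFRL1 lay within their spread of each other. CAL-29 cells were thus led by FGFR3 and FGFR2 among the receptors, and 5637 cells by FGFR2, with FGFR3 among the lowest.

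**Figure D1:**
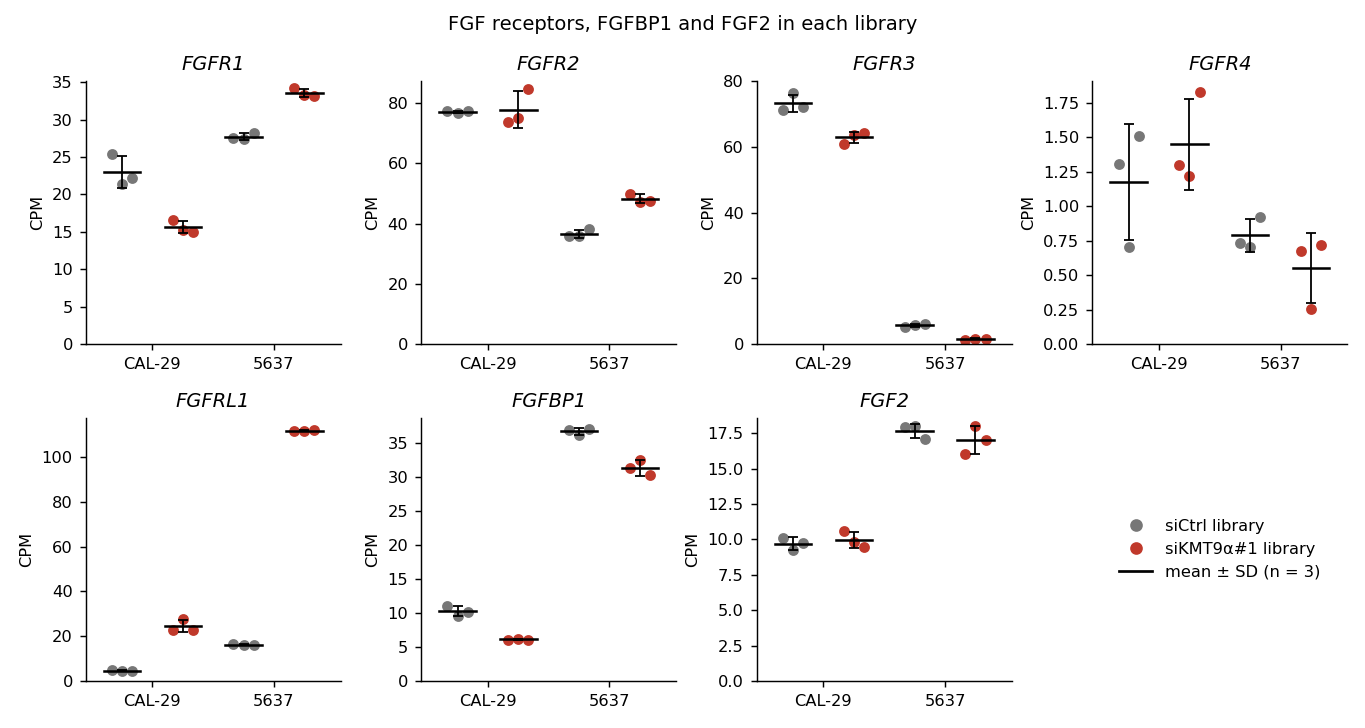
Level in CPM (y axis, linear, starting at 0) of each of the 7 genes in the 12 libraries, by cell line and siRNA (gray, siCtrl; red, siKMT9α#1), with mean ± SD (n = 3). FGFRL1 is higher in all siKMT9α#1 libraries of both lines, with a mean of 111.7 CPM in 5637 cells, and FGFR3 is near 70 CPM in CAL-29 siCtrl libraries but near 6 CPM in 5637 siCtrl libraries.

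How the siCtrl cells of the lines differ was tested in a fit over all 12 libraries, since the choice of the genes did not rest on this contrast, although the same siCtrl libraries entered both. FGFR3 showed the widest gap of the 7 genes, with a level 12.2-fold higher in CAL-29 than in 5637 cells (log2 difference 3.61, SE 0.07, edgeR adjusted p = 2.12e-27). FGFR2 was 2.01-fold higher in CAL-29 cells (log2 difference 1.01, SE 0.05, edgeR adjusted p = 9.61e-17). The opposite held for FGFBP1, which was 3.76-fold higher in 5637 cells (log2 difference -1.91, SE 0.07, edgeR adjusted p = 9.09e-21), for FGFRL1, which was 3.67-fold higher there (-1.88, SE 0.09, edgeR adjusted p = 1.10e-17), and for FGF2, which was 1.91-fold higher there (-0.93, SE 0.08, edgeR adjusted p = 1.26e-11). FGFR1 was 1.26-fold higher in 5637 cells (log2 difference -0.34, SE 0.07, edgeR adjusted p = 2.65e-05), short of the threshold used here, an unadjusted p below 1e-06, at a p of 1.75e-05. Without CAL-29 siCtrl replicate 1, which stood apart, the FGFR1 difference was -0.42 and passed. FGFR4 did not pass either, with a log2 difference of 0.50 (SE 0.32, edgeR adjusted p = 0.146) and overlapping libraries at 0.686 to 1.47 CPM in CAL-29 and 0.720 to 0.944 CPM in 5637 cells. So 2 of the 7 genes were called higher in CAL-29 cells and 3 lower, where 29.0% of 15395 genes tested were called higher and 30.7% lower. In 6 of the 7 genes the siCtrl libraries of the lines did not overlap, against 85.1% of all genes tested. A call was thus common between the lines, and the median absolute difference over all genes tested was 0.76 on the log2 scale, beside 3.61 for FGFR3.

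FGFRL1, the receptor without a kinase domain, was low in CAL-29 cells, at 5.02, 4.38 and 4.46 CPM with siCtrl. The CAL-29 siKMT9α#1 libraries held 22.8, 27.6 and 22.9 CPM. In 5637 cells it stood at 16.6, 15.9 and 16.1 CPM with siCtrl and at 111.6, 111.5 and 112.1 CPM with siKMT9α#1. Every siKMT9α#1 library was above every siCtrl library in both lines, and the 5637 siKMT9α#1 libraries were nearly identical. The level was 5.30-fold that of siCtrl in CAL-29 cells (log2 fold change 2.41, SE 0.11) and 6.90-fold in 5637 cells (2.79, SE 0.05). Ordered by log2 fold change from the highest, FGFRL1 stood at rank 83 of 14673 genes tested in CAL-29 cells and at rank 15 of 14335 in 5637 cells. These ranks belong to the values by which the gene was chosen. The 3 transcript rows of FGFRL1 gave log2 ratios of 2.39 to 2.40 in CAL-29 cells and 2.78 to 2.79 in 5637 cells. Rows of a gene can count the same reads, so their likeness is no separate support for the difference. After the knockdown, FGFRL1 was at 32.8 CPM per kb in 5637 and at 7.17 CPM per kb in CAL-29 cells.

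FGFR3, the receptor most often altered in bladder tumors, was at 71.4, 76.3 and 72.0 CPM in the CAL-29 siCtrl libraries and at 61.0, 63.6 and 64.1 CPM in the siKMT9α#1 libraries. The groups did not overlap, but the siKMT9α#1 mean was still 0.859 times that of siCtrl (log2 fold change -0.22, SE 0.05). In 5637 cells, FGFR3 was at 5.09, 5.91 and 6.17 CPM with siCtrl and at 1.42, 1.70 and 1.71 CPM with siKMT9α#1. All 5637 siKMT9α#1 libraries were far below the siCtrl libraries, at 0.281 times the siCtrl mean (log2 fold change -1.83, SE 0.15). The deposited counts behind these values were 1613 to 2086 per library in CAL-29 cells, and 166 to 219.5 with siCtrl and 38 to 52.5 with siKMT9α#1 in 5637 cells. On the log2 scale the larger difference was thus in the line that had little FGFR3 at the start, while in CPM the means differed by more in CAL-29 cells, at 73.3 and 62.9 CPM, than in 5637 cells, at 5.72 and 1.61 CPM. The difference between the responses, CAL-29 minus 5637, was 1.62 on the log2 scale (SE 0.14) and is given without a test.

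The IIIb row of FGFR3 held more counts than the IIIc row in 11 of 12 libraries. The rows are taken to differ only in the exons printed above, as RefSeq describes these transcripts, so their difference compares the reads on these exons. It was 17.5 to 21.5 counts in CAL-29 siCtrl cells, 26.5 to 53 counts in CAL-29 siKMT9α#1 cells and 5.5 to 8.5 counts in 5637 siCtrl cells. In the 5637 siKMT9α#1 libraries it was larger by at most 2 counts and the rows were equal in the other library, which is too few counts to compare the isoforms. As a share of the IIIb row, the difference was 0.896% to 1.23% in CAL-29 siCtrl, 1.41% to 2.54% in CAL-29 siKMT9α#1 and 3.31% to 4.63% in 5637 siCtrl cells, where the IIIb exon is 3.51% of the transcript. The share was thus higher in 5637 than in CAL-29 siCtrl cells, the reverse of the order of the counts.

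FGFR2, the main receptor of epithelial cells for FGF7 and FGF10, stood at 77.3, 76.7 and 77.4 CPM in CAL-29 siCtrl cells and at 73.6, 75.0 and 84.8 CPM in CAL-29 siKMT9α#1 cells. Here the libraries overlapped, with a log2 fold change of 0.011 (SE 0.055). In 5637 cells it was at 35.8, 35.8 and 38.3 CPM with siCtrl and at 49.9, 47.3 and 47.5 CPM with siKMT9α#1. The 5637 groups did not overlap, and the siKMT9α#1 mean was 1.32-fold that of siCtrl (log2 fold change 0.40, SE 0.05). FGF7 and FGF10 themselves did not exceed 3 counts in any library.

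FGFR1, the receptor of mesenchymal cells that many carcinoma lines also express, lies at chr8:38257733-38326352 on the minus strand. It was at 25.4, 21.4 and 22.1 CPM in CAL-29 siCtrl libraries and at 16.6, 15.3 and 15.0 CPM with siKMT9α#1. The siKMT9α#1 libraries were all lower (log2 fold change -0.55, SE 0.08). In 5637 cells it was at 27.5, 27.4 and 28.2 CPM with siCtrl and at 34.2, 33.3 and 33.2 CPM with siKMT9α#1, and there the siKMT9α#1 libraries were all higher (log2 fold change 0.28, SE 0.05). The difference in response, CAL-29 minus 5637, was -0.81 (SE 0.09). The 9 FGFR1 rows, which can count the same reads, gave log2 ratios from -0.58 to -0.55 in CAL-29 cells and from 0.25 to 0.29 in 5637 cells. FGFR4, whose main ligand is FGF19, was close to 1 CPM in both lines, with 7 to 45.5 counts per library. It was at 1.31, 0.704 and 1.51 CPM in the siCtrl libraries and 1.298, 1.22 and 1.83 CPM in the siKMT9α#1 libraries of CAL-29, and at 0.736, 0.706 and 0.926 against 0.674, 0.258 and 0.722 CPM in 5637 cells. The groups overlapped in both lines, and at this depth no difference was detectable (log2 fold change 0.28, SE 0.29 in CAL-29 cells and -0.51, SE 0.33 in 5637 cells).

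FGFBP1, which mobilizes FGF2, was at 11.0, 9.54 and 10.2 CPM in CAL-29 siCtrl cells and at 6.04, 6.16 and 6.08 CPM with siKMT9α#1. In 5637 cells it was at 36.9, 36.2 and 37.03 CPM with siCtrl and at 31.3, 32.5 and 30.2 CPM with siKMT9α#1. The siKMT9α#1 libraries were below the siCtrl libraries in both lines, by a log2 fold change of -0.75 (SE 0.11) in CAL-29 cells and -0.23 (SE 0.05) in 5637 cells. Its ligand FGF2 was at 10.1, 9.22 and 9.75 CPM with siCtrl and 10.6, 9.82 and 9.47 CPM with siKMT9α#1 in CAL-29 cells. In 5637 cells FGF2 was at 17.9, 18.0 and 17.1 CPM with siCtrl and at 16.0, 18.0 and 17.0 CPM with siKMT9α#1. The groups overlapped in both lines, with log2 fold changes of 0.040 (SE 0.10) and -0.052 (SE 0.068).

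Side by side, the siKMT9α#1 and siCtrl libraries did not overlap for 4 of the 7 genes in CAL-29 and for 5 in 5637 cells, where 72.3% and 72.4% of all genes tested did not. At an unadjusted p below 1e-06, FGFRL1 (higher) would be called in CAL-29 cells, where 15.0% of genes were called higher and 15.0% lower, and FGFRL1 and FGFR2 (higher) and FGFR3 (lower) in 5637, where 18.0% of genes were called higher and 17.6% lower. All 7 genes passed the filter on low counts in both lines. These counts rest on the contrast used to choose the genes and are given only as a description.

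**Figure D2:**
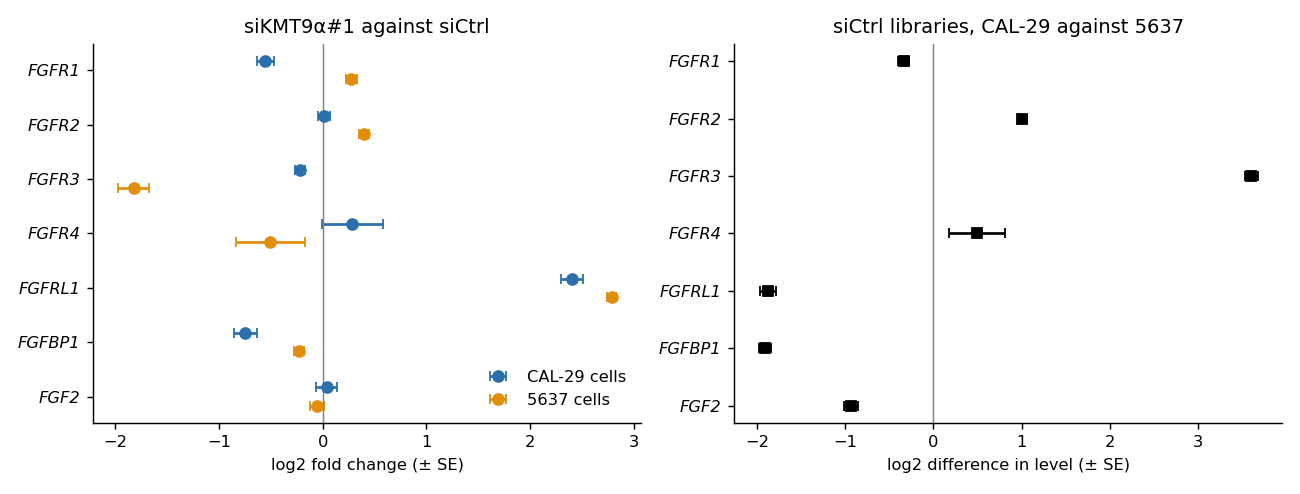
Left, log2 fold change of siKMT9α#1 against siCtrl (± SE) for each gene in CAL-29 (blue) and 5637 (orange) cells, and right, log2 difference in level between CAL-29 and 5637 siCtrl libraries (± SE). FGFRL1 lies at 2.41 and 2.79 on the left, FGFR1 lies on opposite sides of 0 in the 2 lines, and FGFR3 lies at 3.61 on the right.

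Added over the 5 receptors, the level per kb shows how the mix of receptor transcripts differed. In CAL-29 cells the sum was 39.2 to 39.7 CPM per kb with siCtrl and 40.1 to 43.2 with siKMT9α#1. FGFRL1 made up 3.43% ± 0.247 of it with siCtrl and 17.1% ± 1.84 with siKMT9α#1 (SD, n = 3), while the share of FGFR3 was 43.1% ± 1.51 and 35.0% ± 0.431. In 5637 cells the sum was 18.8 to 19.7 CPM per kb with siCtrl and 49.3 to 50.1 with siKMT9α#1. FGFRL1 made up 24.8% ± 0.912 of it with siCtrl and 66.0% ± 0.563 with siKMT9α#1. The sum of the 4 kinase receptors alone was 38.1 ± 0.235 CPM per kb with siCtrl and 34.7 ± 1.60 with siKMT9α#1 for CAL-29, and 14.4 ± 0.524 against 16.9 ± 0.411 for 5637. The kinase receptor sum was thus slightly lower in one line and slightly higher in the other. In 5637 cells FGFRL1 was behind FGFR2 with siCtrl and was the most abundant receptor transcript with siKMT9α#1. These are transcript levels, and protein was not analysed here.

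**Figure D3:**
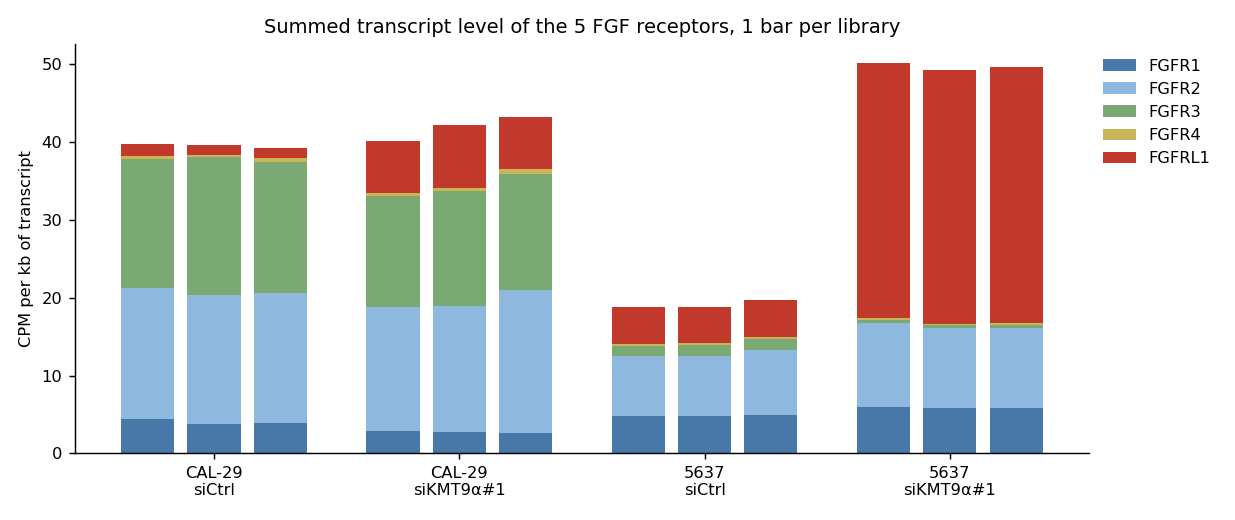
Summed level of the 5 FGF receptor transcripts in CPM per kb (y axis), with 1 stacked bar per library and colors for the receptors. The FGFRL1 segment takes 3.43% of the CAL-29 siCtrl bars and 66.0% of the 5637 siKMT9α#1 bars on average.

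The genes around FGFRL1 were read for a shared direction along the chromosome. A start within 500 kb of the FGFRL1 start was found for 18 other protein-coding genes. For CAL-29, 15 of them were tested, with 0 called higher and 1 lower, where each direction held 15.0% of all genes tested. For 5637, 12 were tested, with 1 called higher and 3 lower, beside 18.0% higher and 17.6% lower over all genes. Among so few neighbors, 1 gene is a large part of these counts. PCGF3, a Polycomb group component, fell in both lines (log2 fold change -1.28, SE 0.06, edgeR adjusted p = 4.80e-14 in CAL-29 cells and -1.18, SE 0.05, edgeR adjusted p = 1.54e-18 in 5637 cells). The largest value in CAL-29 cells belonged to CPLX1 (2.80, SE 0.53, edgeR adjusted p = 8.96e-05), which rested on a mean of 12.5 counts and did not pass. For the neighbors the median was -0.33 in CAL-29 and -0.19 in 5637 (log2 fold change), against -0.016 and -0.0055 over all genes tested. FGFRL1 itself was at 2.41 and 2.79. Whether the position on the chromosome plays a part was not tested. FGFR3, further along the same arm, was on the other side of 0.

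By pattern over the 12 libraries, with the mean of each line taken off, the 5 genes most like FGFRL1 among 11908 compared were KCNK1, a potassium channel gene (Pearson r = 0.997), SMG5, a factor of nonsense-mediated decay, FAM13B, MCFD2, a cargo adaptor of the early secretory pathway, and the pseudogene SBDSP1, whose reads may be shared with SBDS. KCNK1 was higher by a log2 fold change of 1.78 in CAL-29 and 2.22 in 5637 cells, and SMG5 by 0.76 and 0.90. The points share libraries and the same pair of treatments, so the likeness is given as a description.

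Of 105 other genes of the FGF pathway, in 9 lists by role, 76 were tested in CAL-29 cells, with 15 called higher and 21 lower, and 75 in 5637 cells, with 23 called higher and 16 lower. These are 19.7% and 27.6% in CAL-29 cells, beside 15.0% and 15.0% of all genes tested, and 30.7% and 21.3% in 5637 cells, beside 18.0% and 17.6%. The same shares of all genes stand beside the counts of each list below, where 1 gene is a large part of a list. These lists were chosen with earlier results of these data known, so the shares of pathway genes here and below are a description. Leaving out siCtrl replicate 2 of CAL-29 cells gave 8 called higher there, and leaving out siCtrl replicate 1, which stood apart, gave 19. Over all genes tested, 4402 were called in CAL-29 cells with all libraries, 3269 without siCtrl replicate 2 and 5475 without siCtrl replicate 1. Of the 17 other secreted ligands, 1 was tested in CAL-29 cells and was not called, and 2 were tested in 5637 cells. There FGF1 was called lower, at 1.59, 0.963 and 0.954 CPM with siCtrl and 0.0749, 0.0738 and 0 CPM with siKMT9α#1. The latter rest on 2, 2 and 0 counts. FGF1 thus passed the filter on low counts only through its siCtrl libraries, and no p-value is given. FGF5 was not called but was lower too, at 2.15, 2.44 and 2.13 against 1.24, 0.702 and 0.427 CPM. Both were named after their values were seen, with highest counts of 51.5 for FGF1 and 76 for FGF5. FGF2 was the one secreted ligand with more than 100 counts in any library. Among binding proteins and co-receptors, L1CAM, a neural adhesion molecule that can bind FGFR1, fell in both lines (log2 fold change -1.19, SE 0.06, edgeR adjusted p = 2.66e-13 in CAL-29 cells and -1.86, SE 0.08, edgeR adjusted p = 3.20e-18 in 5637 cells). CDH2, N-cadherin, fell by 2.14 in CAL-29 cells (SE 0.06), and FLRT3 rose by 1.17 in 5637 cells (SE 0.08). Of the proteoglycans that present FGF to its receptors, 1 rose and 6 fell of the 10 tested for CAL-29, and 1 rose and 3 fell of the 8 tested for 5637, or 10% and 60%, and 12.5% and 37.5%, led by the glypican GPC4 at -2.67 (SE 0.05) and -1.74 (SE 0.05). Of the heparan sulfate enzymes, CAL-29 had 3 rises and 4 falls among 13 tested, and 5637 had 3 rises and 4 falls among 15. The rises were 23.1% and 20%, beside 15.0% and 18.0% of all genes tested. The falls were 30.8% and 26.7%, beside 15.0% and 17.6%. The sulfotransferase HS3ST1 was at 1.85 (SE 0.11) and 1.20 (SE 0.06), and the chain-starting enzyme EXTL3 at -1.87 (SE 0.05) and -1.43 (SE 0.04).

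Downstream of the receptors, CAL-29 had 4 rises and 5 falls among 19 adaptors and effectors, and 5637 had 8 rises and 3 falls, or 21.1% and 26.3% against 42.1% and 15.8%. SHC1, an adaptor of receptor tyrosine kinases, rose in both (log2 fold change 0.99, SE 0.05 and 1.15, SE 0.04), and the S6 kinase RPS6KA3 fell in both (-0.95, SE 0.06 and -1.03, SE 0.04). The feedback inhibitors, which damp the MAPK cascade, had 2 of 11 higher and 2 lower for CAL-29, near the share over all genes. For 5637, 6 of 10 feedback inhibitors were higher and 0 lower, or 60% and 0%, beside 18.0% and 17.6% of all genes tested. Their median log2 fold change was 0.25 for CAL-29 and 0.63 for 5637, against -0.016 and -0.0055 over all genes tested. DUSP6, the ERK phosphatase, rose by 0.61 (SE 0.08) and 0.83 (SE 0.04). Among 10 transcription targets, CAL-29 had 5 rises and 1 fall and 5637 had 4 rises and 2 falls, with PHLDA1 at 2.28 (SE 0.06) and 1.35 (SE 0.04), and with EGR1 at -1.96 (SE 0.10) in 5637 cells, where FOS fell as well (-1.47, SE 0.20). Both varied between replicates. EGR1 was at 312 ± 77.1 CPM with siCtrl and 79.7 ± 13.7 with siKMT9α#1, and FOS at 16.9 ± 6.84 and 5.98 ± 2.48 CPM (SD, n = 3). The transcription targets thus held calls in both directions in each line, with IER3 lower in CAL-29 cells. MAPK activity itself was not tested. Over the lists, 11 of 71 genes tested in both lines were called higher in both and 9 lower in both, which is 15.5% and 12.7% beside 8.45% and 8.49% of all 13674 genes.

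**Figure D4:**
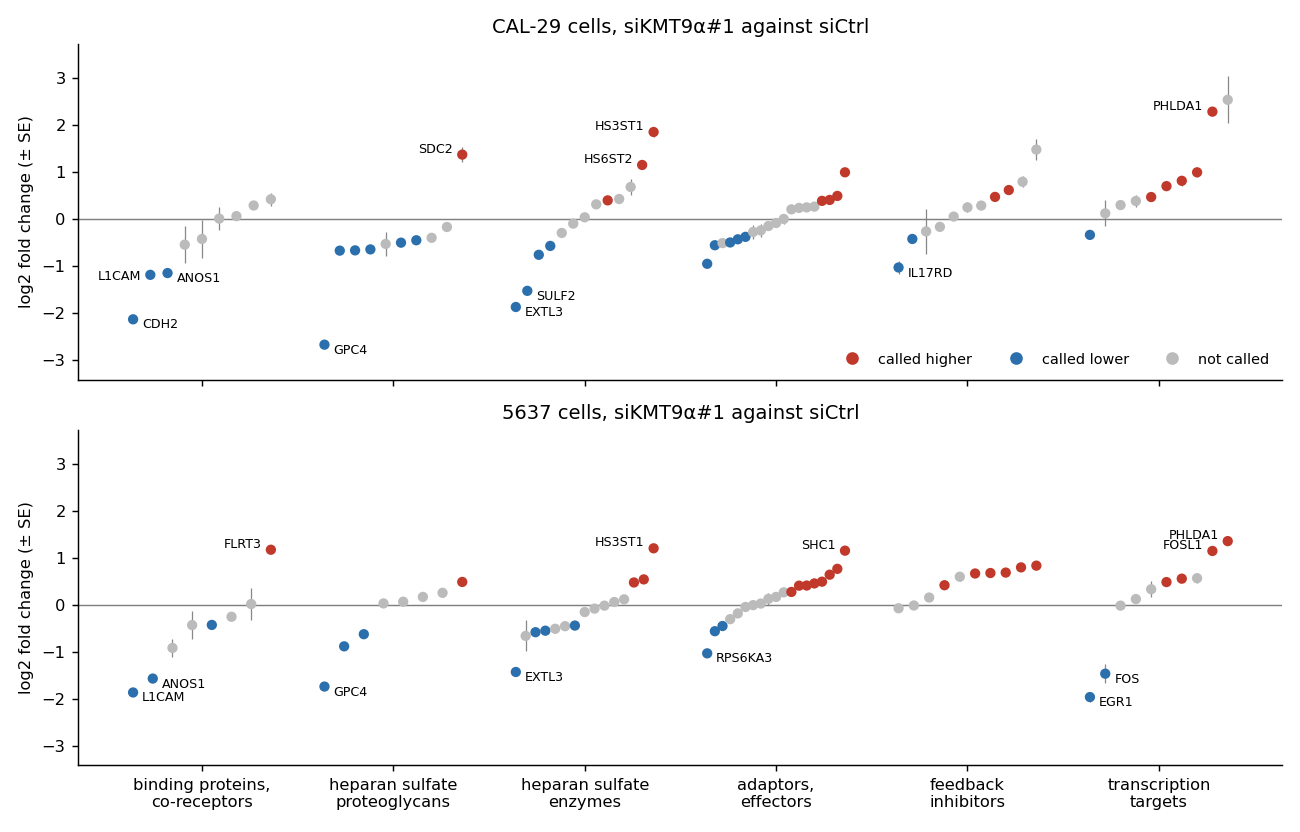
Log2 fold change of siKMT9α#1 against siCtrl (y axis, ± SE) of the tested genes of 6 FGF pathway lists in CAL-29 (top) and 5637 (bottom) cells, each point a gene sorted within its list (red, called higher; blue, called lower; gray, not called). Feedback inhibitors are called higher only or not called in 5637 cells, and GPC4, L1CAM and EXTL3 are among the lowest in both lines.

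In the siCtrl cells, 22 of 80 pathway genes tested were called higher in CAL-29 cells and 32 lower, or 27.5% and 40% beside 29.0% and 30.7% of all genes tested. Of the 10 transcription targets, 2 were higher and 8 lower, or 20% and 80%. Of the 11 feedback inhibitors tested, 1 was higher and 7 lower, or 9.09% and 63.6%. L1CAM, at means of 715 and 49.2 CPM in CAL-29 and 5637 cells, and SDC2, at 1.98 and 0.0818 CPM, were higher in CAL-29 cells. ETV5, a transcription factor that follows FGFR signaling, was at a mean of 33.5 CPM in CAL-29 and 2.14 CPM in 5637 cells (log2 difference 3.96, SE 0.09, edgeR adjusted p = 2.50e-25), on the same side as FGFR3. ETV1, of the same family, was on the opposite side at 0.165 and 5.41 CPM (log2 difference -4.996, SE 0.29, edgeR adjusted p = 1.25e-15). So was ETV4, at 9.36 and 52.9 CPM (log2 difference -2.50, SE 0.08), which was named after its values were seen. EGR1 stood at 6.52 and 318 CPM (log2 difference -5.60, SE 0.15, edgeR adjusted p = 8.73e-24), also on the opposite side. SULF1, an extracellular heparan sulfate sulfatase, had 0 counts in each CAL-29 siCtrl library and a mean of 11.1 CPM in 5637 cells, which is at least 97.2-fold higher against a floor of 3 counts per library.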

How the data were processed

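RNAseq libraries were assigned to control and knockdown groups from the sample titles. Neither the titles nor the count columns name siKMT9α#1, and this name is taken from the paper's account of its RNAseq. The authors aligned reads to hg19 with STAR, counted them per RefSeq transcript with HOMER and tested with edgeR. The deposited estimated counts come in steps of 0.5 and were rounded for the fits. The authors' own fold changes and p-values in the same tables were not used. The row with the most counts stood for each symbol, and edgeR 4.0.16 in R 4.3.3 (filterByExpr, TMM, quasi-likelihood test) was fitted on all genes, per line for the knockdown and over 12 libraries for the siCtrl cells. The fits were run on simulated counts with known changes in far fewer genes than were called here. That check does not cover changes as widespread as those in these data. Calls used an unadjusted p below 1e-06, and adjusted p-values are Benjamini-Hochberg over all genes tested. Transcript lengths and positions are from GENCODE on GRCh37. The members and lists were chosen with earlier results of these data known. Named besides the members and N6AMT1 were, per list and line, up to 2 called genes with the largest rise and 2 with the largest fall (mean count of at least 50), up to 3 pathway genes per direction between the siCtrl groups, the FGFRL1 neighbors, and the 5 genes most like FGFRL1. Same-numbered replicates showed little shared deviation, with correlations of -0.01 to 0.08, so no block was used. Alternatives included DESeq2 1.42.0, other scalings, filters, rows and left-out libraries. One exon comparison is not reported here.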

Additional observations from a re-analysis of the deposited data

Results flagged for a closer look

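FGFR1 moved in opposite directions in the 2 lines, with every siKMT9α#1 library below the siCtrl libraries in CAL-29 cells and above them in 5637 cells. The response in CAL-29 minus that in 5637 cells was -0.81 on the log2 scale (SE 0.09), and this difference was not tested. Among the other pathway genes, 5 were called in opposite directions. Since this chose them, the differences between their responses are given as a description, without a test. The difference was -1.99 for the sulfatase SULF2, which was at -1.53 in CAL-29 and 0.47 in 5637 cells (log2 fold change). It was -1.08 for the phosphatase DUSP7, -0.92 for the syndecan SDC3, -0.87 for STAT5B and -0.81 for IER3. These are 7.04% of the 71 pathway genes tested in both lines, beside 1.76% of all 13674 genes. FGFR1, SULF2, DUSP7, SDC3, STAT5B and IER3 all lay lower in CAL-29 and higher in 5637 cells after the knockdown.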

How the results depend on the processing

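Of 404 recomputed values of the 7 genes, 389 stayed within the replicate spread or on their side of the threshold, and 3 changed sign, all of FGFR2 or FGF2 in CAL-29 cells, which lay near 0 and were not called. The FGFRL1 log2 fold change ranged from 2.31 to 2.49 in CAL-29 cells and from 2.73 to 2.81 in 5637 cells. Scaling by total counts gave log2 fold changes of 0.091 for FGFR2, -0.14 for FGFR3, -0.67 for FGFBP1 and 0.12 for FGF2 in CAL-29 cells, and of 0.22 for FGFR1, 0.34 for FGFR2, 2.73 for FGFRL1 and -0.28 for FGFBP1 in 5637 cells. Upper quartile scaling gave 0.23 for FGFR1, 2.75 for FGFRL1 and -0.27 for FGFBP1 in 5637 cells. The sign changes were to -0.018 for FGFR2 with upper quartile scaling, and to -0.049 for FGFR2 and -0.0026 for FGF2 when a siKMT9α#1 library was left out. The siCtrl difference of FGFR1 passed with the call at 0.05 after adjustment (-0.34), without a filter (-0.36) and with the likelihood ratio test (-0.34), and ranged from -0.42 to -0.30 with a library left out, passing without CAL-29 siCtrl replicate 1. Pathway genes called higher in CAL-29 cells numbered 15, but 30 at an adjusted p below 0.05, 4 where a change of 1 or more on the log2 scale was also asked for, 8 with rows summed per symbol and 8 to 19 with a library left out. Over all genes tested in CAL-29 cells, 4402 were called in the main fit and 3282 with rows summed. Without siCtrl replicate 2 the number was 3269, and without siCtrl replicate 1 it was 5475. The cause of these differences was not tested. With the fold limit, 7 were lower in CAL-29 cells, 5 higher and 8 lower in 5637 cells, and 12 higher and 18 lower between the siCtrl groups, and at an adjusted p below 0.05, 26 were lower in 5637 cells. With a replicate block, 22 pathway genes were higher and 24 lower for CAL-29, 24 and 16 for 5637, and 23 and 32 between the siCtrl groups. Whether the replicate numbers pair samples is not known, and the block moved no count of pathway genes by more than 1.5 times. Over all genes tested in CAL-29 cells, 4402 were called without the block and 6327 with it. FGFR4 rests on at most 45.5 counts per library, which limits its precision.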

Other observations

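Of the 4 intracellular FGF homologs, which are not secreted, FGF11, FGF12 and FGF13 passed the filter on low counts in both lines and FGF14 did not in either. FGF11 was the most abundant, with up to 756 counts, and was not called in either line (log2 fold change -0.15, SE 0.07, edgeR adjusted p = 0.0587 in CAL-29 cells and -0.35, SE 0.07, edgeR adjusted p = 8.60e-05 in 5637 cells). The klotho gene KL, a co-receptor for endocrine FGFs, was at a mean of 4.25 CPM with siCtrl and 5.68 CPM with siKMT9α#1 in CAL-29 cells (log2 fold change 0.42, SE 0.14, edgeR adjusted p = 0.0108), and at 2.67 and 1.42 CPM in 5637 cells (-0.92, SE 0.18, edgeR adjusted p = 5.87e-05), and neither passed. FRS2, the adaptor that links the kinase receptors to the MAPK cascade, had log2 fold changes of -0.086 (SE 0.054) and 0.026 (SE 0.064), and was 46.2 against 21.1 CPM between the siCtrl groups (log2 difference 1.13, SE 0.06, edgeR adjusted p = 4.32e-17). FGF11, KL and FRS2 were named after their values were seen.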
